A study of Mus musculus with 14 samples.

Results

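Transcripts of 32 genes of cholesterol and fatty acid synthesis were followed in cultured mouse helper T cells of the Th1 type, known for interferon gamma, and the Th2 type, known for interleukin 4. The genes were chosen by name and not by their values, and they comprised the enzymes from acetyl-CoA to cholesterol, the enzymes that build, elongate and desaturate fatty acids, and the regulators of both. A probe set was at hand for 31 of the 32, out of 18194 genes annotated on the array, and Acat2, an acetyl-CoA acetyltransferase, is not analysed here. The 31 genes had 74 probe sets, of which 68 passed a filter on low signal, and each gene kept at least 1. In the whole series 29467 of 45101 probe sets passed. The probe set with the highest mean signal over 14 arrays stood for each gene unless another is named.

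T cells had been polarised for 2 weeks. There were 14 arrays, 1 for each condition. Both cell types were measured untreated, after siRNA against Thy1, a T cell surface protein that served as the siRNA control, and after siRNA against Trpm4. The other 4 conditions of each cell type were infections with the vector alone or with a retrovirus for a dominant negative Trpm4 (DN Trpm4), each at 4 h and at 12 h of stimulation. The series asks what inhibiting Trpm4, a calcium-activated cation channel, does to gene expression in each cell type. No stimulation or time is labelled for the untreated and siRNA arrays. The sources used here do not give strain, sex or age of the mice, the vector's promoter, or whether cells of several mice were pooled.

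Cholesterol is built from acetyl-CoA by way of mevalonate, isoprenoids, squalene and lanosterol, and fatty acids from acetyl-CoA by way of malonyl-CoA and palmitate. When membranes hold little sterol, the transcription factors encoded by Srebf1 and Srebf2 are carried from the endoplasmic reticulum, cleaved and moved to the nucleus, where they activate most genes of both pathways. The Insig proteins hold them back when sterol is plentiful, and Insig1 is itself one of their targets. Activated T cells are known to raise both pathways as they grow and divide.

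Signals were quantile normalised and are given as log2 of the signal plus 16, so the floor is 4.0 and the median probe set lies at 5.39. Differences are log2 ratios on that scale, and they understate changes near the floor. The median deposited signal of an array was 19.9 to 28.3. No condition was replicated. Pairs of matched arrays took the place of replicates, so p-values measure only the spread between these samples, which may be technical. The arrays of 1 cell type in 1 set (the 2 siRNA arrays, or vector and DN Trpm4 at 1 time) correlated at 0.987 to 0.996 over the probe sets kept. All 7 T cell marker genes measured were above the array's median on every array. Of the markers of other cells, those above it on at least 1 array were 4 of 4 of CD8 T and NK cells, 5 of 5 of B cells, 8 of 8 of macrophages and dendritic cells, 4 of 5 of fibroblasts, 3 of 4 of hepatocytes and none of the 3 adipocyte or 3 erythroid markers measured. In such cultures, fewer expressing cells and less RNA per cell cannot be told apart.

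The arrays fell into 2 kinds by the ratio of 3′ to 5′ signal of their control probe sets. On 6 arrays, which were all 4 retrovirus arrays of Th2 cells and the 2 from Th1 cells at 4 h, the log2 ratio for Gapdh was 5.64 to 6.07 and that for Actb 3.91 to 4.92. On the other 8 the ratios were -0.36 to 0.06 and 0.04 to 0.51. Where a comparison crosses kinds this is said, the other probe sets of the gene are given where they differ, and the part of the 3′ to 5′ ratio in the result was not tested.

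The 31 genes did not move as a block over the arrays. Scd1, the desaturase that makes oleate from stearate, had a range of 4.28 between its lowest array (4.54, Th2 vector at 12 h) and its highest (8.82, untreated Th1). Its relative Scd2 ranged over 4.11, from 7.69 in Th2 cells with Thy1 siRNA to 11.79 in untreated Th1 cells. Fdps, which joins isoprene units into farnesyl diphosphate, also ranged over 4.11 and was lowest on the Th2 array of DN Trpm4 at 4 h. The ranges of Scd1 and Fdps cross the kinds of array, with the lowest array of the high and the highest of the low 3′ to 5′ ratio. The smallest ranges were those of Ggps1, the geranylgeranyl diphosphate synthase (1.05), Sc5d, a sterol desaturase (1.11), and Fasn, the fatty acid synthase (1.15). Hmgcs1, Idi1, Sqle, Fdft1 and Cyp51 all had their highest array in Th1 vector cells at 4 h. Mvd was above the array's median on 6 of 14 arrays, Fads2 on 7, and Scd1 and Fads1 on 9 each, so their lower values lie near the floor.

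**Figure D1:**
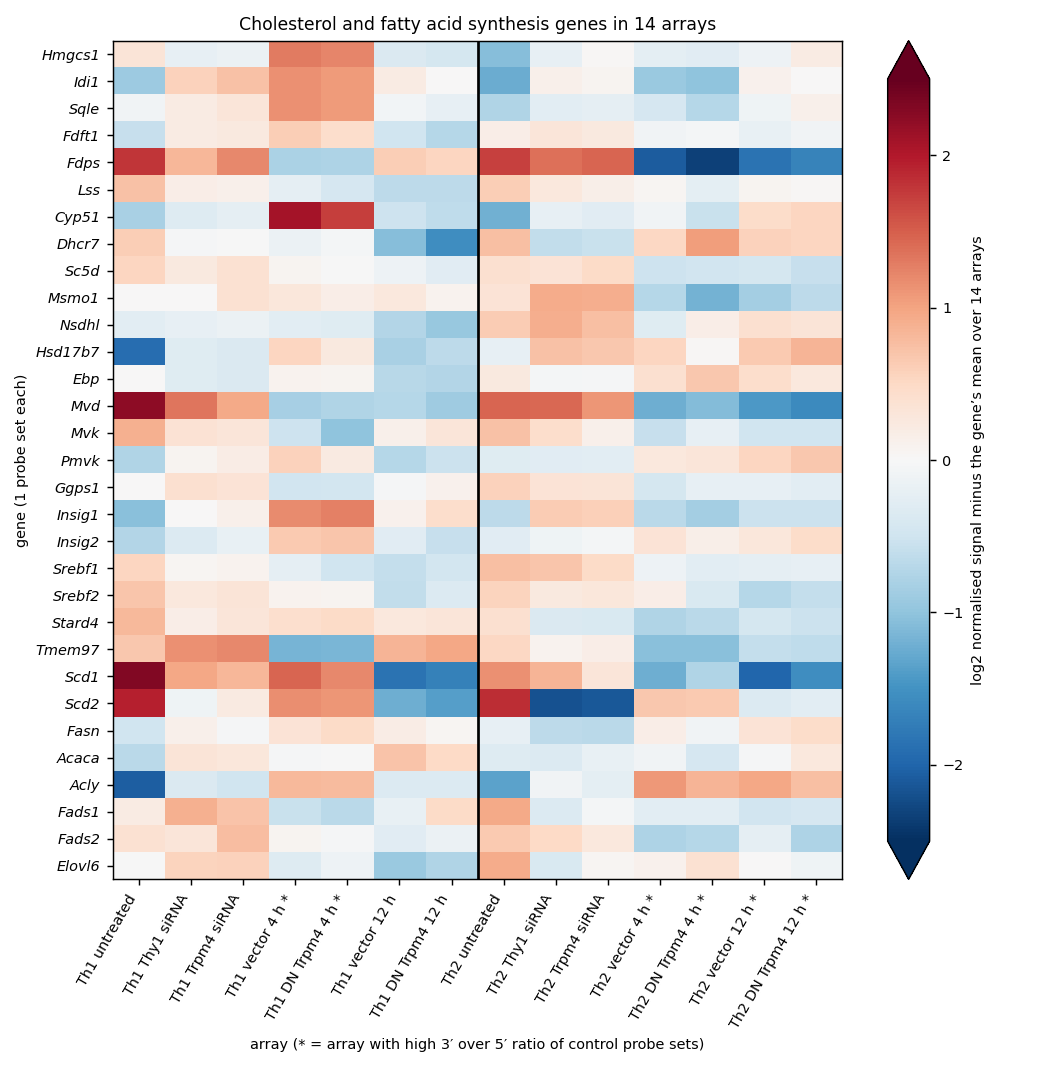
Log2 normalised signal of 31 genes (vertical axis, 1 probe set each) on 14 arrays (horizontal axis, Th1 left of the line and Th2 right), as the difference from the gene's mean over all 14 arrays. Red is above and blue below that mean, and a star marks the 6 arrays with a high 3′ to 5′ ratio. Cyp51, Hmgcs1, Idi1, Sqle and Insig1 are red on the Th1 arrays at 4 h, while Scd1 is blue on all 4 arrays at 12 h.

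Over all 7 pairs of like treatment, 4 of the 31 genes differed between Th1 and Th2 cells (limma, Benjamini-Hochberg adjusted p under 0.05), against 9.79% of all probe sets tested (3.65% higher, 6.14% lower). Of the 31, 12 had an unadjusted p under 0.05, against 27.3% of all probe sets. The median ratio of the 31 was 0.23, that of all probe sets 0.01. On the main probe sets, Stard4, a carrier that moves cholesterol between membranes, was the 1 gene higher in Th1 cells. Its signal was 8.75 to 9.39 in Th1 cells (median 8.89) and 7.84 to 8.99 in Th2 cells (median 8.14), and it was higher in 7 of 7 pairs, by 0.39 to 1.16. The mean ratio was 0.78 (SE 0.13, n = 7 pairs, limma adjusted p = 0.00661). Among Th2 arrays, the untreated one alone reached into the Th1 range. Of the other probe sets, those called higher in Th1 cells were of Stard4 (0.62), Scd2 (1.32), Hmgcs1 (1.12) and Fdft1 (0.73, against -0.09 on its main one). One of Ggps1 was called lower (-0.45).

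The 3 genes lower in Th1 cells act late in cholesterol synthesis. Nsdhl, which removes a carboxyl group while the C4 methyl groups of the sterol are taken off, was at 6.95 to 7.75 in Th1 cells (median 7.64) and 7.59 to 8.80 in Th2 cells (median 8.30). It was lower in 6 of 7 pairs, with a mean ratio of -0.82 (SE 0.17, limma adjusted p = 0.0166). Hsd17b7, the ketoreductase of the same demethylation, was at 6.14 to 8.59 in Th1 cells and 7.85 to 8.90 in Th2 cells, lower in 5 of 7 pairs, with a mean ratio of -0.93 (SE 0.24, limma adjusted p = 0.0415). Ebp, the isomerase that shifts the sterol's ring double bond, was lower in 7 of 7 pairs, by 0.24 to 1.15, with a mean of -0.55 (SE 0.15, limma adjusted p = 0.0455). The groups overlapped for Nsdhl and Hsd17b7 through arrays at 4 h, and Ebp was at 8.44 to 9.26 in Th1 cells against 9.13 to 9.85 in Th2 cells. The 12 h pairs cross the 2 kinds of array: without them the ratios were -0.67 for Nsdhl, -0.71 for Hsd17b7 and -0.34 for Ebp, with adjusted p of 0.0974, 0.208 and 0.151, and Stard4 was the 1 gene still called. The call for Hsd17b7 was also lost without the pair of untreated, Thy1 siRNA, Trpm4 siRNA, vector 12 h or DN Trpm4 12 h arrays (adjusted p 0.0843 to 0.11), that for Ebp without any 1 pair other than the untreated one (0.0645 to 0.122), and that for Nsdhl without the DN Trpm4 pair at 12 h (0.0505).

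The difference between cell types was not the same in each set of arrays, so it was also estimated per set, a step added after the values had been seen. In these estimates the 2 siRNA pairs, or the vector and DN Trpm4 pairs at 1 time, served as repeats, and since such arrays are near duplicates the p-values say little about other cultures. The pairs at 4 h, both on arrays with a high 3′ to 5′ ratio, showed the largest excess in Th1 cells. There 14 of the 31 genes were higher and 3 lower, against 27.2% of all probe sets called (13.6% in each direction), and the median ratio was 0.36 against 0.02 for all probe sets. The 14 were enzymes of the mevalonate, squalene and sterol steps, the feedback regulator Insig1, the carrier Stard4 and 3 fatty acid desaturases.

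Early in the pathway, Hmgcs1, which makes HMG-CoA, was at 11.19 (vector) and 11.11 (DN Trpm4) in Th1 cells at 4 h against 9.64 and 9.61 in Th2 cells. The ratio was 1.53 (SE 0.14, n = 2 pairs, limma adjusted p = 6.51e-05), and its 4 other probe sets were higher by 0.68 to 2.13. Idi1, the isomerase that makes dimethylallyl diphosphate, was at 10.14 and 10.07 against 8.06 and 7.99, a ratio of 2.08 (SE 0.12, limma adjusted p = 6.55e-06), and 1.95 on its other probe set. In both genes the Th1 arrays lay above every Th2 array of the series. Fdps was higher by 1.41 (limma adjusted p = 0.000121) and Mvd, the decarboxylase that ends the mevalonate steps, by 0.36 (limma adjusted p = 0.0461), a call lost with the deposited values. For Mvk, which phosphorylates mevalonate, and Pmvk, which phosphorylates the product of Mvk, the ratios were -0.36 and 0.11 and did not pass.

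Of the sterol-forming enzymes, Cyp51, the lanosterol demethylase, had the largest ratio at 4 h. Its signal was 11.32 and 10.97 in Th1 cells against 9.16 and 8.69 in Th2 cells, a ratio of 2.22 (SE 0.12, n = 2 pairs, limma adjusted p = 5.48e-06), and its 2 other probe sets gave 1.68 and 1.03. Sqle, the epoxidase that opens the way from squalene to sterols, was at 10.38 and 10.29 against 8.81 and 8.51, higher by 1.67 (SE 0.13, limma adjusted p = 3.7e-05). These 4 Th1 values, too, were above those of all other arrays. Msmo1, the first oxidase of C4 demethylation, was higher by 1.18 (limma adjusted p = 0.000782), Fdft1, the squalene synthase, by 0.59 and Sc5d by 0.52 (both limma adjusted p = 0.011). Dhcr7, which saturates the last double bond on the way to cholesterol, went the other way at -0.88 (limma adjusted p = 0.00344), as did Ebp at -0.45 (limma adjusted p = 0.0301), a call lost with median centring (-0.27). Lss, the lanosterol synthase, Nsdhl and Hsd17b7 had ratios of -0.22, -0.20 and 0.11 and did not pass.

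Among the regulators, Insig1 was at 10.32 and 10.39 in Th1 cells at 4 h and at 8.48 and 8.29 in Th2 cells. The ratio was 1.97 (SE 0.14, n = 2 pairs, limma adjusted p = 1.61e-05), and both Th1 arrays exceeded all others in the series. The ratio of Insig2, its relative, was 0.43 (limma adjusted p = 0.055), and those of Srebf1 and Srebf2 were -0.18 and 0.18. Neither factor's transcript passed the test. Stard4 was higher by 1.16 (limma adjusted p = 0.000164), on all 3 of its probe sets, while Tmem97, an endoplasmic reticulum protein tied to cholesterol transport, had a ratio of -0.11.

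The fatty acid genes split at 4 h. Scd1 was at 7.96 and 7.71 in Th1 cells and at 5.29 and 5.75 in Th2 cells, a ratio of 2.31 (SE 0.18, n = 2 pairs, limma adjusted p = 3.49e-05) and 1.10 on its other probe set. Scd2 was higher by 0.46 (limma adjusted p = 0.0295), with 0.32 and 0.19 on 2 weaker probe sets that did not pass, and Fads2, a desaturase of polyunsaturated fatty acids, by 0.76 (limma adjusted p = 0.0229), near the floor, with 0.02 on its other probe set. Elovl6, which elongates palmitate, had a ratio of -0.47 (limma adjusted p = 0.0397) on its main probe set and 0.40 on another, both called in opposite directions, so it has no settled direction. Fasn (0.37), Acaca, the acetyl-CoA carboxylase (0.23), Acly, which cleaves citrate to acetyl-CoA (-0.16), and Fads1, another desaturase (-0.35), did not pass. Apart from Elovl6, no other probe set of a gene that passed was called in the opposite direction at 4 h, and 34 of the 37 other probe sets had the sign of the main one.

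**Figure D2:**
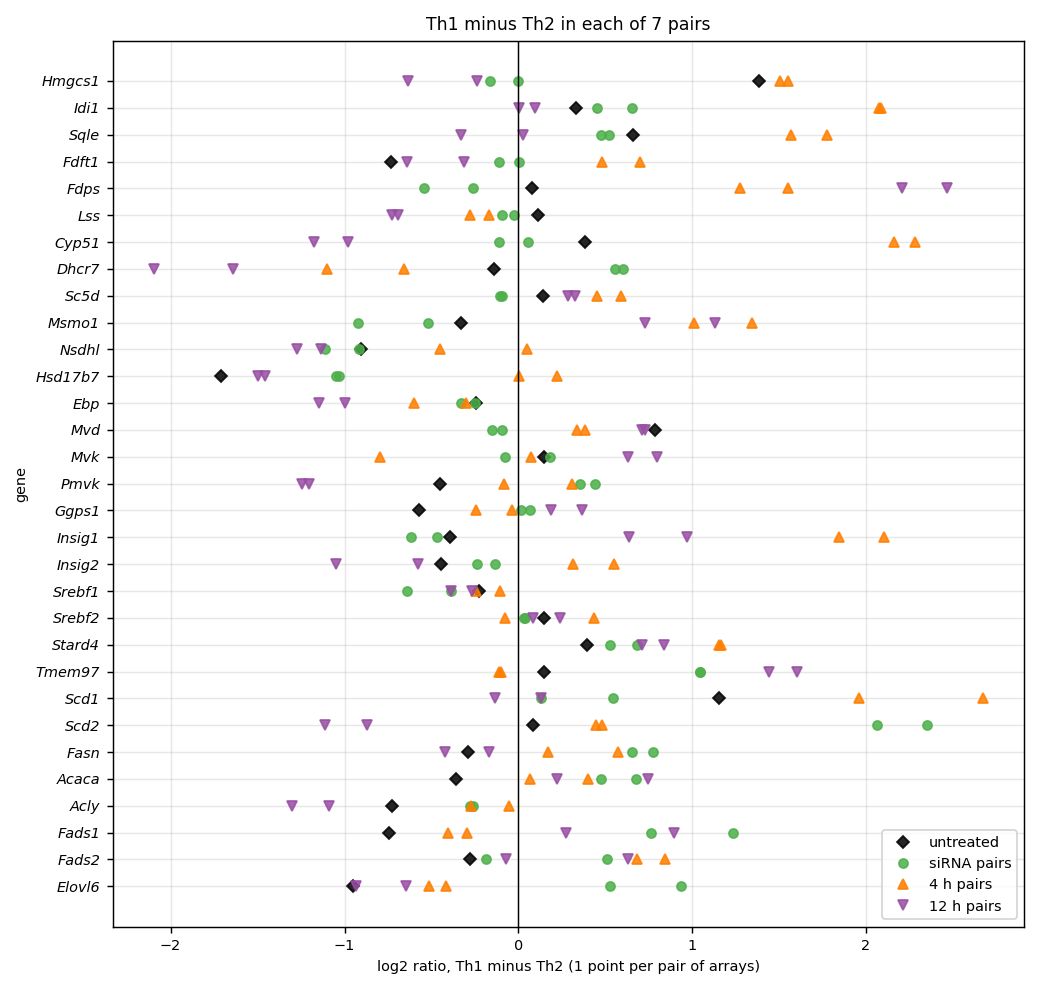
Log2 ratio of Th1 to Th2 signal (horizontal axis) for 31 genes (vertical axis), 1 point per pair of arrays of like treatment, coloured by set. The orange 4 h pairs lie far to the right for Cyp51, Scd1, Idi1, Insig1, Sqle and Hmgcs1, while the green siRNA pairs of these genes lie nearer 0.

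Promoter sequences are shown for 3 genes with a ratio of at least 1.53 at 4 h, picked after their values were seen: an early enzyme, a sterol-forming enzyme and the feedback regulator. They are the 250 bases before the annotated start in RefSeq (GRCm38.p6), 5′ to 3′ on the gene's strand, for Hmgcs1 at chr13:119690101-119690350 (plus strand), Cyp51 at chr5:4104698-4104947 (minus strand) and Insig1 at chr5:28071162-28071411 (plus strand). Capitals mark the sterol regulatory element TCACNCCAC and the CCAAT box, read on both strands, and no marked motifs overlap.
Hmgcs1: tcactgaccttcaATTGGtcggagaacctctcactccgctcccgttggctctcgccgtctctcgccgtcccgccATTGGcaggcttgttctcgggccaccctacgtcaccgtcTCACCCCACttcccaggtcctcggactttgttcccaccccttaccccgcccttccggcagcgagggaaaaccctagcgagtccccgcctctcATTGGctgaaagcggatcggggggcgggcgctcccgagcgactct
Cyp51: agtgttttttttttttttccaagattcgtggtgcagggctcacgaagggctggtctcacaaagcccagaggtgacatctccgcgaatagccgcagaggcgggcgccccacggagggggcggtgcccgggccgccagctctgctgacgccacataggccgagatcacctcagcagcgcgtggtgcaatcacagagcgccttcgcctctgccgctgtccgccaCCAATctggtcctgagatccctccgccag
Insig1: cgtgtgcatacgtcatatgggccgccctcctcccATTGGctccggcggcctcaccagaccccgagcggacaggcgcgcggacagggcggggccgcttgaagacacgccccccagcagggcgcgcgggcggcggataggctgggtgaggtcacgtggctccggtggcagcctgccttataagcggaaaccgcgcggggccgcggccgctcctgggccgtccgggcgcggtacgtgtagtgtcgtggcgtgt
Hmgcs1 has 1 match to the sterol element, 137 to 129 bases before the start, and 3 CCAAT boxes on the opposite strand. Cyp51 has 1 CCAAT box 29 to 25 bases before the start, and Insig1 has 1 at 216 to 212 bases. The RefSeq table held windows for 25 of the 32 genes, 32 windows in all. The sterol element was in 1 of these windows (3.12%) and in 1.05% of all 32851 windows of the table, the CCAAT box in 21 (65.62%) and in 33.85%. Of the other motifs searched, GGGCGG was in 71.88% of the windows of these genes and 32.74% of all, and CACGTG in 12.5% and 6.02%. A match describes letters in a window and is neither a site nor a cause, and a window without one says nothing of the factor.

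In the siRNA pairs, all on arrays with a low 3′ to 5′ ratio, 11 of the 31 genes were higher and 5 lower in Th1 cells, against 32.9% of probe sets called. The median ratio was 0.04. Cholesterol genes that led at 4 h were nearly level here: Hmgcs1 was at 9.69 and 9.75 in Th1 cells against 9.69 and 9.91 in Th2 cells (ratio -0.08), and Cyp51 at 8.93 and 9.01 against 9.04 and 8.96 (ratio -0.03). Neither passed. Insig1 (-0.54, limma adjusted p = 0.0148) and Msmo1 (-0.72, limma adjusted p = 0.00769) were lower in Th1 cells, the reverse of 4 h, and Idi1 (0.55), Sqle (0.50) and Stard4 (0.60) were higher by less than at 4 h. Hsd17b7 was at 7.76 and 7.69 against 8.79 and 8.73, lower by 1.04 (limma adjusted p = 0.000252), and Nsdhl was lower by 1.01 (limma adjusted p = 0.000886).

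Of the 11 genes higher in Th1 cells among siRNA arrays, 5 were fatty acid genes. Scd2 was at 9.75 and 10.09 in Th1 cells and at 7.69 and 7.74 in Th2 cells, a ratio of 2.21 (limma adjusted p = 5.03e-06), with 2.62 and 1.82 on its other probe sets. Fads1 was higher by 0.999, Elovl6 by 0.73, Fasn by 0.72 and Acaca by 0.57, with limma adjusted p of 0.00236 to 0.0221. Of these, Elovl6 was called on 1 of 2 further probe sets, and Fads1 and Acaca had ratios of 0.08 and 0.09 on theirs. Tmem97 was higher by 1.05.

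The difference between cell types itself differed between 4 h and siRNA arrays for 18 genes, 13 of them higher and 5 lower at 4 h, against 28% of all probe sets. Fdps had pair ratios of 1.28 and 1.55 at 4 h against -0.54 and -0.26 with siRNA. The change between these sets was 2.52 for Insig1, 2.25 for Cyp51, 1.98 for Scd1, 1.90 for Msmo1, 1.61 for Hmgcs1 and 1.53 for Idi1. It was -1.74 for Scd2, -1.46 for Dhcr7, -1.35 for Fads1, -1.20 for Elovl6 and -1.15 for Tmem97. Other probe sets gave -0.12 for Scd1, -0.09 for Fads1 and 0.30 and -0.89 for Elovl6. The 4 h pairs and the siRNA pairs each lie within 1 kind of array, but not in the same one. The calls for Stard4 and Fdft1 were lost with median centring. Stimulation, retrovirus, time and array kind cannot be told apart between these sets.

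The untreated cells gave 1 pair, 1 array against 1, so its ratios have no replicate check. The genes named here are the 11 called when the spread of the other sets, whose arrays lie close together, is assumed for it (30.5% of all probe sets were called in the same way), and they are given as values only. Hmgcs1 was at 10.20 in Th1 and 8.82 in Th2 cells (ratio 1.38), and its 4 other probe sets also had ratios above 0. Scd1 was at 8.82 and 7.66 (ratio 1.16), but its other probe set gave -0.35. The ratios of Mvd and Sqle were 0.78 and 0.66. Hsd17b7 was at 6.14 in Th1 and 7.85 in Th2 cells (ratio -1.71), with -2.41, -1.56 and -0.11 on its other probe sets. Elovl6, Nsdhl, Fads1, Fdft1, Acly and Ggps1 had ratios of -0.57 to -0.95. For 3 of these 6 the other probe sets had the opposite sign, at 0.45, 0.18 and 0.17 for Acly, 0.19 and 0.09 for Fdft1 and 0.06 for Fads1. In this pair the deposited values, with no further normalisation, shift the median of all probe sets by -0.15.

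At 12 h the Th1 arrays had a low and the Th2 arrays a high 3′ to 5′ ratio. There 10 genes were higher and 13 lower in Th1 cells, against 57.2% of all probe sets, and for 7 of the 37 other probe sets the gene was called in opposite directions. Gene calls at 12 h are therefore not described singly. On the main probe sets, Idi1 was never lower in Th1 cells over all 7 pairs (ratios 0.00 to 2.08). Acly and Srebf1 were lower in 7 of 7 pairs, but none of these passed over the 7 pairs. The other probe set of Idi1 gave -0.71 in the untreated pair and -0.14 at 12 h. Those of Acly gave 0.69, 0.09 and -0.49 over the 7 pairs, so the direction of both genes depends on the probe set.

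**Figure D3:**
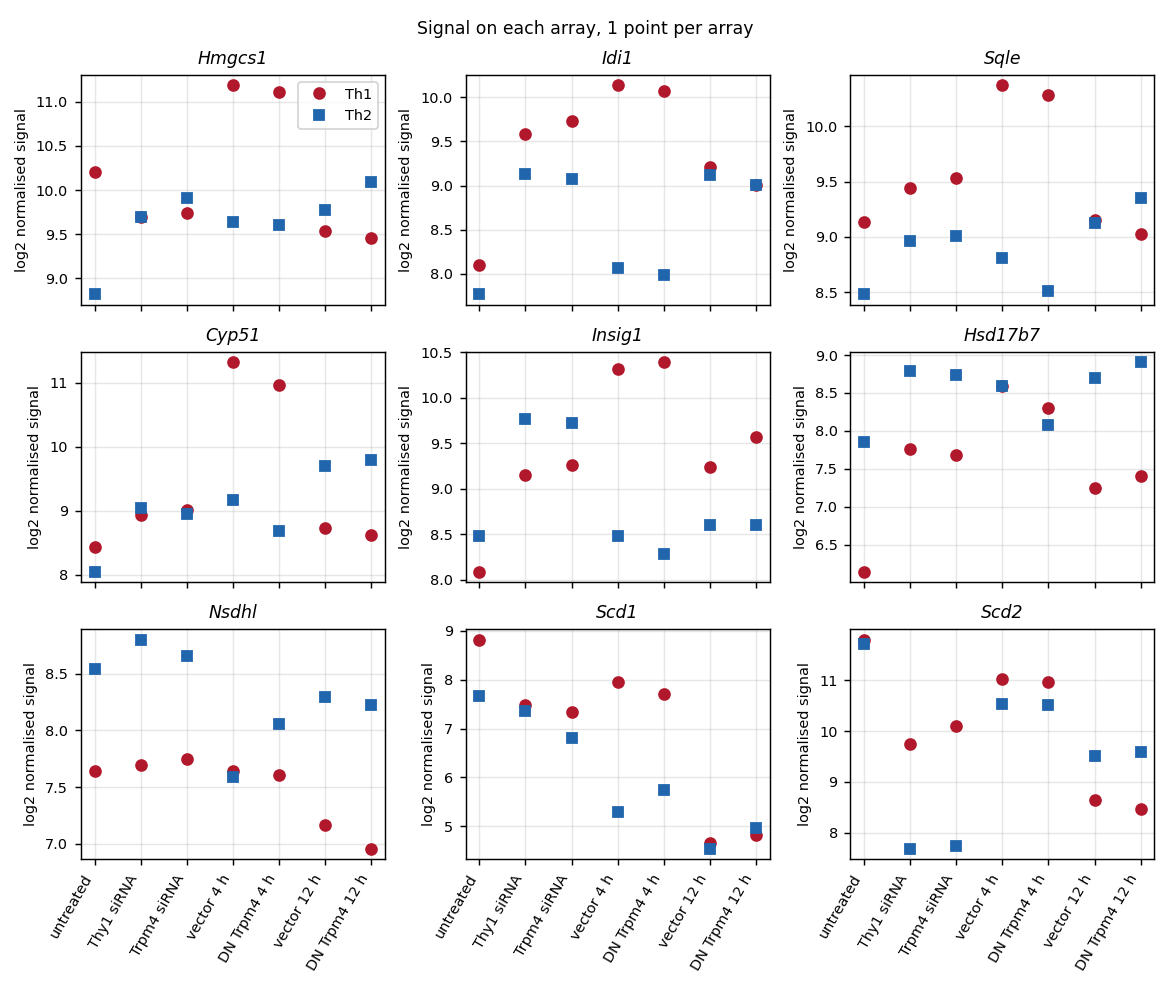
Log2 normalised signal (vertical axis) of 9 genes on each array (horizontal axis, 7 treatments), Th1 as red circles and Th2 as blue squares, 1 point per array. In Hmgcs1, Idi1, Sqle, Cyp51 and Insig1 the Th1 points at 4 h stand above all others. Scd2 has its lowest points in Th2 cells with siRNA, and Nsdhl lies lower in Th1 than in Th2 cells in 6 of 7 pairs.

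The siRNA arrays were compared with the untreated arrays of the same cell type, all of low 3′ to 5′ ratio. Both siRNAs were counted together as repeats, blocked by cell type. Of the 31 genes 6 were higher with siRNA and 6 lower, against 38.3% of all probe sets, and the median ratio was 0.04 for the 31 genes and for all probe sets. Of the 31, 15 had an unadjusted p under 0.05, against 49.2% of all. Idi1 was at 8.10 in untreated Th1 cells and 9.58 and 9.73 with siRNA, and at 7.76 and then 9.13 and 9.07 in Th2 cells. Its ratio was 1.45 (SE 0.14, limma adjusted p = 0.00157), with 2.80 on its other probe set. Insig1 was at 8.09 and then 9.15 and 9.26 in Th1 cells, and at 8.48 and then 9.77 and 9.73 in Th2 cells, a ratio of 1.19 (SE 0.13, limma adjusted p = 0.00217). In both genes all 4 siRNA arrays exceeded both untreated arrays.

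Hsd17b7 (1.24), Acly (1.41), Cyp51 (0.74) and Sqle (0.43) were the other genes higher with siRNA. The Acly value rests on 1 probe set, since its 3 others gave -0.08, -0.27 and -1.35, and that of Cyp51 was 1.43 on 1 other probe set and -0.55 on another of low signal. The largest fall was that of Scd2, from 11.79 in untreated Th1 cells to 9.75 and 10.09, and from 11.71 in untreated Th2 cells to 7.69 and 7.74. The mean ratio was -2.93 (SE 0.46, limma adjusted p = 0.0059), with -3.44 and -1.91 on the other probe sets. Scd1 fell by 0.99, Dhcr7 by 0.98, Stard4 by 0.68, Mvk by 0.51 and Lss by 0.50, with limma adjusted p of 0.012 to 0.0396. Another probe set of Mvk went the other way, at 1.49.

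With the deposited values the median of all probe sets shifts by 0.25 in this comparison, and 10 genes were higher and 3 lower. Stard4, Mvk and Lss then no longer passed. In the same comparison 4 of 7 T cell markers fell (median ratio -1.24). The summed deposited signal of these 7 was 10387 to 22566 over the Th1 arrays and 7397 to 23451 over the Th2 arrays. Of 2 Th1 markers 1 rose (median 2.31), and of 4 Th2 markers 1 rose (median 2.06). Of 3 CD8 T and NK cell markers 1 rose (median 0.40), and no marker of these last lists was called lower. The part of all these markers in the result was not tested. Without the Th1 arrays, which leaves 1 untreated array, the ratio of Scd1 was -0.59.

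Change with time after stimulation was read as 12 h minus 4 h in the retrovirus arrays. Over 4 pairs no gene of the 31 passed (limma), against 2.01% of all probe sets, (0.713% higher, 1.3% lower). Of the 31, 10 had an unadjusted p under 0.05, against 28.2% of all. Scd2 came nearest, at -1.70 (SE 0.32, n = 4 pairs, limma adjusted p = 0.0579), followed by Scd1 at -1.93, Fdps at 0.90, Tmem97 at 1.25, Srebf2 at -0.55 and Elovl6 at -0.46, with adjusted p of 0.0912 to 0.13. With 1 probe set per gene tested, Scd2 passed (limma adjusted p = 0.0403), but its other probe sets gave -0.16 and -0.01, and the Th1 pairs cross the kinds of array. In this fit a difference between cell types counts as spread.

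In Th2 cells, where all 4 arrays were of high 3′ to 5′ ratio, 2 genes rose from 4 h to 12 h and 2 fell, against 10.1% of probe sets. In the same comparison 4 of 7 T cell markers fell (median -0.52), and their part in the result was not tested. Idi1 was at 8.06 (vector) and 7.99 (DN Trpm4) at 4 h and at 9.12 and 9.01 at 12 h, a rise of 1.04 (SE 0.14, n = 2 pairs, limma adjusted p = 0.00396), and 0.94 on its other probe set. Cyp51 was at 9.16 and 8.69 and then at 9.71 and 9.79, a rise of 0.82 (limma adjusted p = 0.0199) that did not pass with median centring (0.65, limma adjusted p = 0.0539) and was 0.44 and 0.00 on its other probe sets. At 12 h both remained below their Th1 levels at 4 h.

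Both stearoyl-CoA desaturases fell in Th2 cells. Scd2 went from 10.54 and 10.51 at 4 h to 9.51 and 9.59 at 12 h, a ratio of -0.98 (SE 0.14, limma adjusted p = 0.00492), and Scd1 from 5.29 and 5.75 to 4.54 and 4.96, a ratio of -0.77 (limma adjusted p = 0.0171). Scd1 lies near the floor at both times. The other probe set of Scd1 gave -0.52, and those of Scd2 -0.71 and -0.03, the latter of low signal.

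In Th1 cells the 4 h arrays were of the high and the 12 h arrays of the low kind. There 6 genes were higher and 17 lower at 12 h, against 56.1% of all probe sets (27% higher, 29.1% lower). In the same comparison 4 of 7 T cell markers were higher and 2 lower (median 0.40), and their part in the result was not tested. The falls included the genes that stood out at 4 h. Cyp51 went from 11.32 and 10.97 to 8.73 and 8.61 (ratio -2.47), with -1.20 and -0.85 on its other probe sets. Hmgcs1 went from 11.19 and 11.11 to 9.53 and 9.46 (ratio -1.65), with -0.34 to -2.32 on 4 others. Idi1 fell by 0.995 and 1.15 on its 2 probe sets, and Scd1 from 7.96 and 7.71 to 4.66 and 4.83 (ratio -3.09), with -1.67 on its other. For some genes the probe sets disagreed: the main one of Scd2 gave -2.43 against 0.39 and 0.01, that of Acly -1.14 against 2.12, 0.49 and -1.83, that of Srebf2 -0.56 against 0.86, and that of Fdft1 -1.13 against 0.21 and 0.00.

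The change over time differed between the cell types for 19 genes, 4 higher and 15 lower in Th1 cells (38.2% of all probe sets were called, 18.1% higher and 20.1% lower). The median difference was -0.62, against -0.03 over all probe sets. The largest was that of Cyp51, -3.30 (95% interval -3.84 to -2.75, limma adjusted p = 6.48e-05), followed by Scd1 (-2.32), Idi1 (-2.03), Hmgcs1 (-1.96) and Sqle (-1.82). For Cyp51, Idi1, Hmgcs1 and Sqle both Th1 pairs fell and both Th2 pairs rose. Tmem97 had the largest difference the other way, 1.63. Unadjusted p was under 0.05 for 21 of the 31, against 47.3% of all probe sets. The Th1 change crosses the kinds of array and the Th2 change does not. Other probe sets of Scd2 gave differences of 1.09 and 0.04 against -1.45, and those of Acly 2.05, 0.57 and -1.28 against -1.03. Ratios of Th1 to Th2 at 4 h and then 12 h were 1.10 and 1.20, and 0.45 and 0.32, on the other probe sets of Fdft1. On 1 of Hmgcs1 they were 0.68 and 0.78, and on 1 of Hsd17b7 -0.08 and 0.01, while the rest of both genes fell. For Cyp51 they were 1.68 and 0.05, and 1.03 and 0.18. Without the Th1 DN Trpm4 pair the difference of Mvk (1.08) was no longer called (0.75, limma adjusted p = 0.134). With the deposited values those of Fdps and Fasn were not called. In the same contrast 5 of 7 T cell markers were called higher, and their part in the result was not tested.

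**Figure D4:**
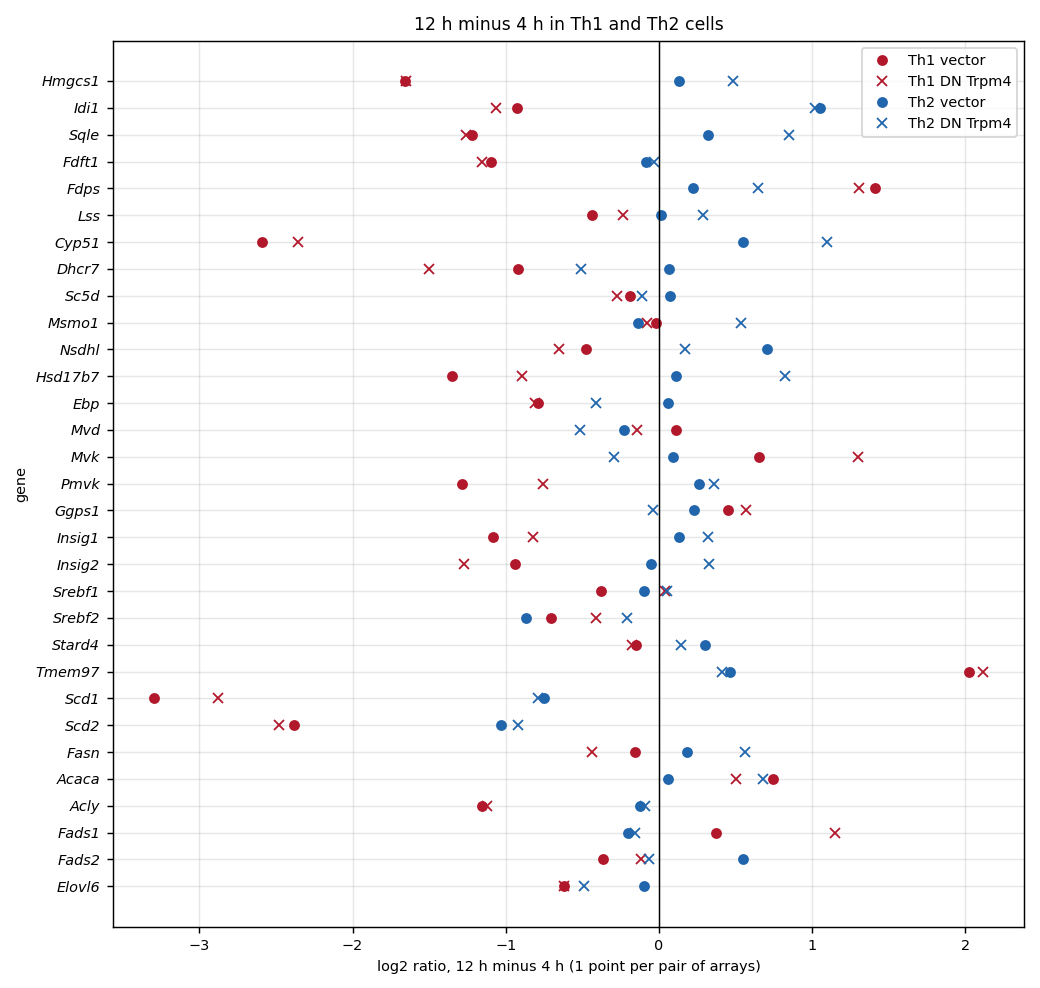
Log2 ratio of 12 h to 4 h signal (horizontal axis) for 31 genes (vertical axis), 1 point per pair of arrays, red for Th1 and blue for Th2, circles for vector and crosses for DN Trpm4. The red points of Cyp51, Scd1, Scd2 and Hmgcs1 lie between -1.65 and -3.29, and the 2 points of a cell type lie close together in most genes.

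The Th1 arrays at 12 h and the Th1 siRNA arrays were of the same, low kind, although stimulation, retrovirus and siRNA cannot be told apart between them. Against siRNA, 19 of the 31 genes were lower at 12 h and none higher, where 23.7% of all probe sets were lower and 21.7% higher. The median was -0.45, against -0.05 for all probe sets. With the deposited values, which shift the median of all probe sets by -0.13, 23 were lower and none higher, and median centring (a shift of -0.11) gave the same count. In this comparison 5 of 7 T cell markers were higher (median 0.68), 3 of 3 CD8 T and NK cell markers lower (median -2.18), 3 of 4 Th2 markers lower (median -1.10), and of 8 macrophage and dendritic cell markers 4 lower and 2 higher, and their part in the result was not tested.

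On the main probe sets Scd1 fell furthest in that comparison, from 7.48 and 7.35 to 4.66 and 4.83. Its ratio was -2.67 (SE 0.22, n = 2 pairs, limma adjusted p = 0.000143), and its other probe set fell by less. Mvd went from 7.41 and 7.02 to 5.35 and 5.18, a ratio of -1.95 (SE 0.13, limma adjusted p = 6.83e-05). At 12 h both lay below the array median of 5.39, where log2 ratios are compressed. Elovl6 fell by 1.41, Scd2 by 1.36 and Dhcr7 by 1.30, and Scd2 fell by 1.48 and 1.47 on its other probe sets. Smaller falls were those of Fdft1 (0.83), Lss (0.80), Srebf2 (0.78), Fads2 (0.76), Pmvk (0.75), Nsdhl (0.66) and Fads1 (0.66). Of the genes that stood out in Th1 cells at 4 h, Idi1 (-0.54) and Sqle (-0.39) fell, and Hmgcs1 (-0.22), Cyp51 (-0.30) and Insig1 (0.20) were not called. For Sc5d and Elovl6 another probe set had the opposite sign (0.58 and 0.34).

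Over both cell types 8 genes were lower at 12 h than with siRNA and none higher, against 24% of all probe sets, but the Th2 arrays cross the kinds. Of the 31, 13 had an unadjusted p under 0.05, against 38.1% of all. Those 8 were Scd1 (-2.5), Mvd (-2.37), Srebf2 (-0.84), Fads2 (-0.82), Sc5d (-0.72), Srebf1 (-0.70), Fdft1 (-0.61) and Nsdhl (-0.57). Of the 37 other probe sets of the 31 genes, 28 had the sign of the main one. One of Sc5d was called in the opposite direction, and the other probe set of Scd1 fell by less than its main one. Leaving out 1 pair left 3 to 6 genes called, with Srebf1 at -0.63 to -0.74, Fdft1 at -0.49 to -0.71 and Nsdhl at -0.49 to -0.61 no longer called in any of these. In this comparison 2 of 3 CD8 T and NK cell markers were lower (median -1.98). The 4 h arrays against siRNA cross the kinds in both cell types. There 6 genes were higher and 9 lower, against 60% of all probe sets, and 16 had an unadjusted p under 0.05, against 64.9% of all. There 3 of 3 CD8 T and NK cell markers (median -2.00) and 3 of 4 Th2 markers (median -1.01) were lower. The part of these markers in either result was not tested. The ratios furthest from 0 among the genes called were those of Fdps (-2.71), Mvd (-2.18), Scd2 (1.94), Tmem97 (-1.75) and Acly (1.18). The other probe sets of Scd2 gave -0.66 and -0.72, and those of Acly 1.64, -0.10 and -2.10.

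Inhibition of Trpm4, the question of the series, was read in 6 pairs. The Trpm4 signal itself fell from 6.95 (Thy1 siRNA) to 6.23 (Trpm4 siRNA) in Th1 cells and from 7.25 to 6.62 in Th2 cells. With DN Trpm4 against vector it was 6.95 against 6.35 at 4 h and 9.21 against 6.62 at 12 h in Th1 cells, and 6.99 against 6.90 at 4 h and 7.06 against 7.27 at 12 h in Th2 cells. Of the 4 DN Trpm4 arrays, that of Th1 cells at 12 h stood far above its control, and the sources used here do not say whether this probe set reads the construct.

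None of the 31 genes differed between Trpm4 inhibition and control (limma, 6 pairs), as none of the 29467 probe sets did (0%), where 1733 probe sets (5.88%) and none of the 31 genes had an unadjusted p under 0.05. Ratios of the 31 ran from -0.14 to 0.16, with a median of -0.01 against 0.00 for all probe sets, and the sign turned for 8 of them with median centring or with the deposited values. The genes with the largest statistics were Elovl6 (0.16, higher in 5 of 6 pairs), Acly (-0.13, lower in 5 of 6), Cyp51 (-0.14), Mvd (-0.14), Lss (-0.11) and Fads1 (0.12), with adjusted p of 0.846 to 0.924. The 95% intervals of all 31 lay between -0.33 and 0.36, with a median width of 0.18 to either side.

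The 2 methods and the 2 cell types gave the same count of 0 of 31 in limma. In Th1 cells the ratios were -0.16 to 0.17 and in Th2 cells -0.25 to 0.20, with 0 of 31 at an unadjusted p under 0.05 in each (3.15% and 6.19% of all probe sets). For the difference of the effect between cell types they were -0.31 to 0.41, again with 0 of 31 (3.5% of all probe sets). DN Trpm4 against vector gave -0.21 to 0.20 and 0 of 31 (3.38% of all). Trpm4 siRNA against Thy1 siRNA, with 2 pairs, gave -0.36 to 0.22, and 1 of 31 genes, Mvd at -0.36 (limma adjusted p = 0.409), had an unadjusted p under 0.05, as 11.3% of all probe sets did. Mvd was at 7.41 and 7.02 in Th1 and 7.50 and 7.18 in Th2 cells with Thy1 and Trpm4 siRNA respectively.

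**Figure D5:**
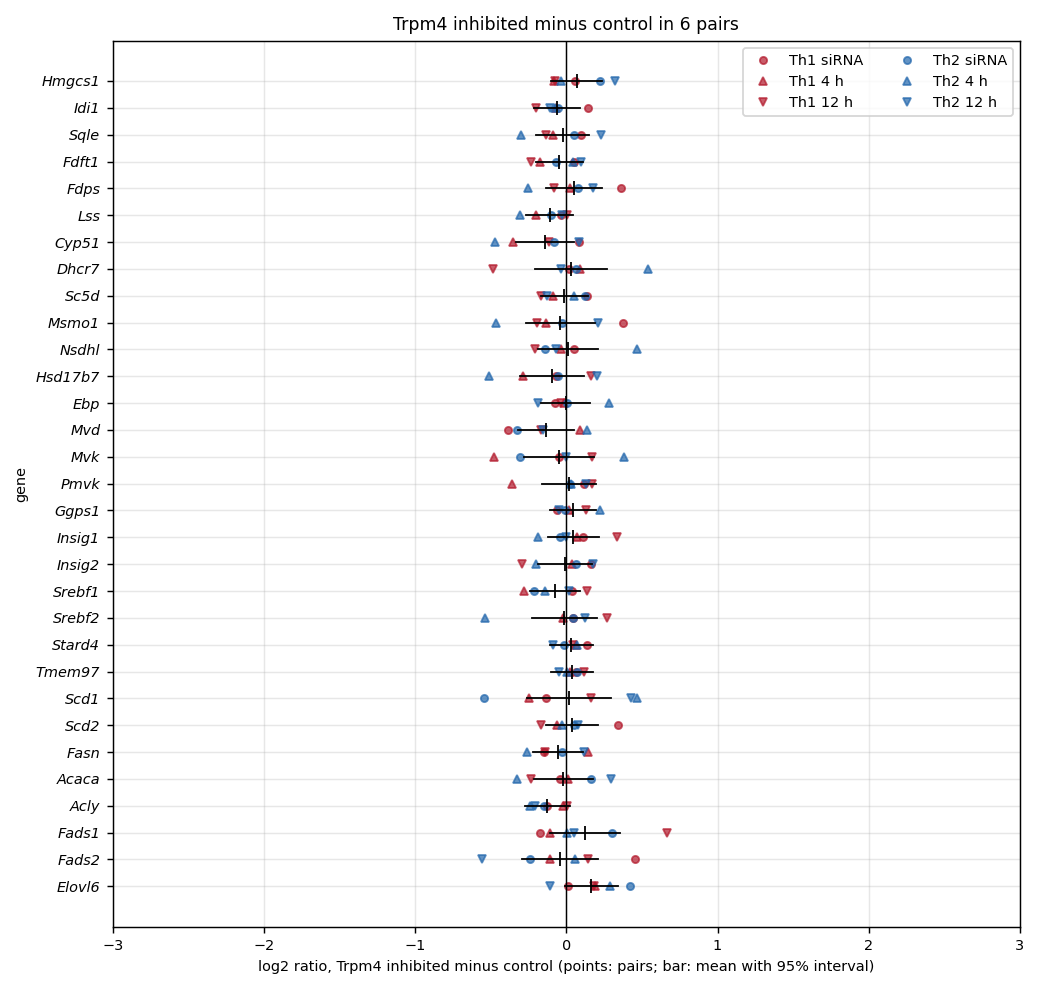
Log2 ratio of signal with Trpm4 inhibited to control (horizontal axis) for 31 genes (vertical axis), 1 point per pair, red for Th1 and blue for Th2, with a black bar for the mean and its 95% interval over 6 pairs. All 31 intervals lie between -0.33 and 0.36, on an axis drawn from -3 to 3.

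Related genes outside the 32 were read in 5 lists, as far as their genes were tested. In Th1 minus Th2 over 7 pairs, 6 of 12 fatty acid oxidation genes tested were lower and none higher, with a median of -0.42, where 9.79% of all probe sets were called and 6.14% were lower. The 12 h pairs of this comparison cross the kinds of array, and without them 1256 of all probe sets were called against 2884. How many of the 6 kept their call without those pairs is not given here. Over all 7 pairs the 6 included Acadvl (-0.73, limma adjusted p = 0.00728), an acyl-CoA dehydrogenase of long chains, and Hadh (-1.51). Cpt2 (-0.63) and Cpt1a (-0.68), which bring acyl groups into mitochondria, were also among the 6. Of 13 other sterol genes 1 was higher, Npc1 (0.48), and 1 lower, Npc2 (-1.27), which hand cholesterol out of lysosomes together. Of 15 other fatty acid synthesis genes, Mid1ip1, an activator of acetyl-CoA carboxylase, was higher (0.70) and Elovl1 lower (-0.40), and of 9 genes of isoprenoid use 1 was lower, the prenyltransferase subunit Fnta (-0.68).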

How the data were processed

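Mouse Th1 and Th2 cells gave 14 samples, 1 per condition, whose Trizol-extracted RNA was biotin-labelled for Affymetrix arrays, per the labels' protocols. The values are the authors' deposited signal intensities per probe set, on a linear scale. The sources used here do not state how probes were summarised or arrays scaled. Total signal was 7324680 to 10608700 per array.

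Intensities as deposited were quantile normalised, raised by a pseudocount of 16 and converted to log2. Probe sets above the array's median on fewer than 2 arrays and 64 control probe sets were left out. Probe sets were named from the platform annotation: 34958 had 1 gene, 932 several and 9211 none. Of these, 34754 were found again in RefSeq by gene identifier, and 0 symbols changed. Differences were fitted over all probe sets kept with limma 3.58.1 in R 4.3.3, with the pair of matched arrays as a block, and p-values were adjusted by Benjamini-Hochberg over all of them. Groups came from the sample labels. Vector and DN Trpm4 arrays, or the 2 siRNA arrays, served as repeats where 1 cell type was fitted alone. For siRNA minus untreated the block was the cell type, each with 1 untreated array and both siRNA arrays as repeats. In retrovirus minus siRNA, vector was matched with Thy1 siRNA and DN Trpm4 with Trpm4 siRNA of the same cell type. The number of arrays limits the precision. The fits were tested on simulated data.

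In a comparison with genes that passed, up to 12 of these with the largest change were to be named, otherwise up to 6 with the largest statistic, and up to 4 per related list; where more are named, they were added after their values were seen. Some genes of the related lists are not reported here. The genes and lists were chosen with earlier results of these data known. The estimate per set of arrays and the promoters printed were chosen after values were seen. Alternatives were median centring, deposited values without normalisation, other filters, pseudocounts of 1 and 64, eBayes with trend, 1 probe set per gene, no pair block, each cell type alone, and leaving out each pair. Promoters came from RefSeq (GRCm38.p6).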

Additional observations from a re-analysis of the deposited data

Results flagged for a closer look

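In 19 genes the change from 4 h to 12 h differed between the cell types by a test of the difference itself (limma, adjusted over all probe sets). By the same test 5340 of all 29467 probe sets were called positive and 5913 negative. The Th1 change minus the Th2 change was negative in 15 of the 19 genes. Among sterol genes it was -3.30 for Cyp51, -2.03 for Idi1, -1.96 for Hmgcs1, -1.82 for Sqle, -1.59 for Hsd17b7, -1.33 for Pmvk, -1.07 for Fdft1, -1.0 for Nsdhl and -0.99 for Dhcr7. Among the regulators it was -1.25 for Insig2 and -1.17 for Insig1. Among fatty acid genes it was -2.32 for Scd1, -1.45 for Scd2, -1.03 for Acly and -0.67 for Fasn. It was positive for Tmem97 (1.63), Mvk (1.08), Fads1 (0.94) and Fdps (0.92). For some genes, among them Scd2 and Acly, other probe sets had the opposite sign. The calls for Fasn and Fdps were lost with the deposited values. The Th1 arrays differ in their 3′ to 5′ ratio between 4 h and 12 h and the Th2 arrays do not, and the part of this in the differences was not tested.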

How the results depend on the processing

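Counts of the 31 genes called moved as follows. For Th1 minus Th2 (4 called), a pseudocount of 1 gave 2, no pair block 11, leaving out the 12 h pairs 1, and leaving out 1 pair 1 to 3. Fitted per set it gave 11 (untreated, 1 pair with the spread of the other sets), 16 (siRNA), 17 (4 h) and 23 (12 h), an alternative chosen after seeing the data. For 12 h minus 4 h (0 called), 1 probe set per gene gave 1, no pair block 7, Th1 alone 23, Th2 alone 4, and leaving out 1 pair 0. For 4 h minus siRNA (15), Th2 alone gave 23 and leaving out 1 pair 12 to 13. For 12 h minus siRNA (8), the deposited values gave 13, Th1 alone 19, Th2 alone 23, and leaving out 1 pair 3 to 6. For siRNA minus untreated (12), no pair block gave 6 and leaving out 1 pair 14 to 22. The difference of the change over time (19) gave 13 to 20 without 1 pair. The causes were not tested. Of all probe sets, Th1 minus Th2 called 2884, but 6074 with no pair block, 1256 without the 12 h pairs and 1744 of 1 probe set per gene, and 12 h minus 4 h called 592, but 0 with a pseudocount of 1, 6113 with no pair block and 919 of 1 probe set per gene. No gene of the 31 was called for Trpm4 inhibition under any alternative run. Trpm4 siRNA against Thy1 siRNA called 98 of all probe sets with the eBayes trend and 4 with a pseudocount of 64, against 0, and could not be fitted without 1 pair. Of the values of named genes under the alternatives, 1138 kept their direction and side of the threshold, 73 lost the call, 15 gained it and none turned. No sample has a replicate, and probe sets near the array's median understate changes.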

Other observations

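Genes of the liver X receptors, which sense oxidised sterols and drive sterol export, fell with siRNA against untreated cells in 5 of 6 tested, all on arrays of low 3′ to 5′ ratio, where 38.3% of all probe sets were called. The exporter genes Abcg1 and Abca1 had ratios of -3.67 (limma adjusted p = 0.000779) and -1.83 (limma adjusted p = 0.00285). Ch25h, which makes 25-hydroxycholesterol, fell by 1.18, and Nr1h3, which encodes a liver X receptor, by 1.22. Abcg1 also fell from 4 h to 12 h, by 2.23 over 4 pairs (limma adjusted p = 0.0314), as did Mylip, which encodes a ubiquitin ligase, by 1.18 (limma adjusted p = 0.0493). The Th1 pairs of 12 h and 4 h cross the kinds of array, and of all probe sets 2.01% were called in that comparison, but 0 without any 1 of its 4 pairs or with a pseudocount of 1. In Th1 minus Th2 over 7 pairs 1 of the 6 differed, Lpcat3, a phospholipid acyltransferase, at -1.18 (limma adjusted p = 0.000877).

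Acss2, which makes acetyl-CoA from acetate, fell by 2.18 with siRNA against untreated cells (limma adjusted p = 0.001) and by 2.04 from 4 h to 12 h (limma adjusted p = 0.0313). Hsd17b12, a reductase of fatty acid elongation, rose in the same comparisons by 1.30 and 1.03, with the same limits on the calls from 4 h to 12 h. Of the 15 other fatty acid synthesis genes 6 rose and 3 fell with siRNA, where 38.3% of all probe sets were called, and Tecr, the last reductase of elongation, was among the falls (-0.98). Of 13 other sterol genes 1 rose, Erlin2 (1.498), and 5 fell, among them Npc2 (-1.09), Lpin1 (-1.06) and Lbr (-0.67). Among 12 fatty acid oxidation genes 2 rose and 3 fell, and of 9 genes of isoprenoid use 1 rose.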
